A study of Mus musculus with 6 samples.

Results

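The genes described here encode the nuclear-coded subunits of respiratory complexes II to V, together with cytochrome c and a supercomplex factor of the same gene family name. They were taken by symbol: Sdha to Sdhd for complex II, symbols starting with Uqcr together with Cyc1 for complex III, Cycs for cytochrome c, symbols starting with Cox4 to Cox8 for complex IV and symbols starting with Atp5 for complex V. A gene was kept where a probe was above the scanner's background flag on at least 3 of the 6 arrays. Of 46 genes with such a symbol, 44 were kept, out of 14732 genes tested. The rule used no difference between the groups. Uqcrq of complex III and Cox7b2, the testis isoform of a complex IV subunit, were near background on all 6 arrays and have no value here.

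Muscle RNA from 3 Rpt3 null and 3 control mice was hybridized to CodeLink whole-genome bioarrays for the mouse, each animal on its own array, on which the brightness of a short oligonucleotide probe reports the amount of a transcript. All mice were females of 6 weeks. The labels give the muscle as tibialis anterior, the study's text as gastrocnemius. The labels give both groups the strain mlc1f-Cre/ Rpt3-floxed, and the study gives the controls as carriers of the same Cre with both Rpt3 alleles wild type, so that Cre was shared by both groups. Rpt3, whose gene is Psmc4, is an ATPase of the 19S cap that unfolds substrates for the proteasome. The study describes the fast myosin light chain promoter as active only in fast-twitch fibers of the adult, and excision by this Cre as incomplete. Slow-twitch fibers and the other cells of the muscle may keep Rpt3, whose distribution in the tissue was not shown. The study also reports Cre activity and a marked loss of Rpt3 protein in the soleus, which has a large share of slow-twitch fibers. The comparison asks how the transcripts of the respiratory chain stood in muscle in which this Cre was used to delete a proteasome subunit.

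The respiratory chain sits in the inner mitochondrial membrane. Complex II, which is also an enzyme of the tricarboxylic acid (TCA) cycle, passes electrons from succinate to ubiquinone, complex III passes them on to cytochrome c, and complex IV, cytochrome c oxidase, hands them to oxygen. Complex V, the ATP synthase, uses the proton gradient that complexes I, III and IV build. Complex IV of adult skeletal muscle and heart carries muscle isoforms of the small subunits VIa, VIIa and VIII, encoded by Cox6a2, Cox7a1 and Cox8b, while most other tissues, and immature muscle, use the ubiquitous isoforms encoded by Cox6a1, Cox7a2 and Cox8a.

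For subunits VIa, VIIa and VIII of complex IV the log2 fold changes of the ubiquitous and the muscle isoform differed by value, with no overlap of the groups. The exact permutation test gave p = 0.1 for each, the smallest p it can give with these arrays. For the isoforms of subunit IV no difference was detected (exact permutation p = 0.9). The promoters of the 5 isoform genes of subunits VIa, VIIa and VIII with an entry in the RefSeq table of GRCm38.p6 are shown. Each is the stretch of 250 bases before the annotated start of the gene, outside its transcribed part, written 5′ to 3′ along the gene's own strand, with the CG dinucleotides in capitals. The first pair belongs to muscle isoforms and the last 3 to ubiquitous isoforms.
Cox7a1, chr7:30183921-30184170, plus strand: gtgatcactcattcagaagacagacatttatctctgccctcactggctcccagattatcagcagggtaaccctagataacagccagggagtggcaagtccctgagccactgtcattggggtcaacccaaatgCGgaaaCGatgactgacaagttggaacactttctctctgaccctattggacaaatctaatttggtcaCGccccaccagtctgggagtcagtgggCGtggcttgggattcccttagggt
Cox8b, chr7:140900447-140900696, minus strand: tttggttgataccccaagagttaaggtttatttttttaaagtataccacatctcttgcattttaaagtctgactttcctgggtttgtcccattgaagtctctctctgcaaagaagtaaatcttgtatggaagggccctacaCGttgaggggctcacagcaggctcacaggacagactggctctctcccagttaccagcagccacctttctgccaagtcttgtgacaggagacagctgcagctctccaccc
Cox7a2, chr9:79759854-79760103, minus strand: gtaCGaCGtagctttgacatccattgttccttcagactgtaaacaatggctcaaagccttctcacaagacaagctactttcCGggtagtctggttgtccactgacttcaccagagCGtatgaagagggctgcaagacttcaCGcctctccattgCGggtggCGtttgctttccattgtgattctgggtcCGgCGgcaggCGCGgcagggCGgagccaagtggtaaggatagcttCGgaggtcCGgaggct
Cox8a, chr19:7217617-7217866, minus strand: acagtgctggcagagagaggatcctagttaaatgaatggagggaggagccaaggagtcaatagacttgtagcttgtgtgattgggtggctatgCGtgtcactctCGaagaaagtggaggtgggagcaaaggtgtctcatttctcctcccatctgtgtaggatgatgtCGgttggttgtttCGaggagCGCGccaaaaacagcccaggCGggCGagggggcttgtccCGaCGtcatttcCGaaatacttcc
Cox6a1, chr5:115348959-115349208, minus strand: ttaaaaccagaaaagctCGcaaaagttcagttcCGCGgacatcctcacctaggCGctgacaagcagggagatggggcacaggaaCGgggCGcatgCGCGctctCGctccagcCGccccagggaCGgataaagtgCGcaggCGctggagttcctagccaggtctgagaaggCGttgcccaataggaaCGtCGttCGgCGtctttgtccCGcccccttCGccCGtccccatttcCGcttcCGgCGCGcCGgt
The promoter of Cox8b held 1 CG dinucleotide and that of Cox7a1 held 4, the lowest counts among the 34 members with an entry. The counts were 14 for Cox7a2, 11 for Cox8a and 26 for Cox6a1, beside a median of 14 over the promoter entries of those members and of 6 over all 32851 promoters in the table. Cox6a2 was among the 10 tested members without an entry.

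The members were among the brightest genes on the arrays. Their median lay at the 98.8th percentile of mean log2 intensity over all tested genes, and 38 of 44 lay above the 95th percentile. All 44 were above background on all 6 arrays and no spot of theirs was saturated. Of the whole arrays, 57.0% to 74.5% of the probes were above background. By the brighter of its 2 probes Psmc4 fell by 1.17 on the log2 scale (limma adjusted p = 0.00031), with no overlap of the groups, and the other probe gave -0.23 (limma adjusted p = 0.399 over probes). No source used here places the probes relative to the floxed exons, so that they need not check the labels. All 12 fast fiber markers passed the filter and their summed intensity was 232573 to 242192 in Rpt3 null muscle and 240231 to 260324 in controls.

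In Rpt3 null muscle 3 of the 44 members rose and 7 fell at an adjusted p under 0.05 from limma over all 14732 genes. Cox8a, Cox6a1 and Cox7a2l rose, and Atp5b, Cox7a1, Atp5a1, Cox6a2, Cycs, Sdha and Sdhd fell. Over all tested genes 12.7% were called higher and 6.56% lower, beside 6.82% and 15.9% of the members. At an unadjusted p under 0.05 the members gave 4 higher and 16 lower. In 8 members every Rpt3 null array lay above every control array and in 17 every one lay below, which is 18.2% and 38.6% of the members, beside 21.1% and 15.6% of all tested genes. The median log2 fold change was -0.08 over the members and -0.01 over all tested genes. By complex, the median was -0.48 for complex II, -0.14 for complex III, -0.04 for complex IV and 0.01 for complex V.

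The split between rises and falls depended on how the arrays were scaled. It was 3 higher and 7 lower with quantile normalization over the transcript probes, 8 and 2 with each array centred on its median, 4 and 2 with its 75th percentile, 4 and 4 with quantile normalization that also took in the control spots, and 2 and 2 in the authors' value table. With each array centred on Actb, which moved the median of all tested genes to -0.72, the split was 1 and 29. The shares of all tested genes called higher and lower moved as well. They were 17.3% and 4.07% with median centring, beside 18.2% and 4.55% of the members, and 12.4% and 5.16% with 75th percentile centring, beside 9.09% and 4.55%. With Actb centring they were 2.23% and 70.1%, beside 2.27% and 65.9%, with quantile normalization over all spots 12.8% and 6.50%, beside 9.09% and 9.09%, and by the authors' own values 10.7% and 4.70%, beside 4.55% and 4.55%. A share of lower members well above that of all genes was thus found with quantile normalization over the transcript probes and not with median, 75th percentile or Actb centring or in the authors' value table. Cox8a alone was called under all 21 alternatives, and Atp5a1 and Atp5b under all but the methods' test after Benjamini-Hochberg adjustment. The reported direction of each of the 10 called members was the same under all 21. A rise or fall below is relative to the other genes on the array.

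**Figure D1:**
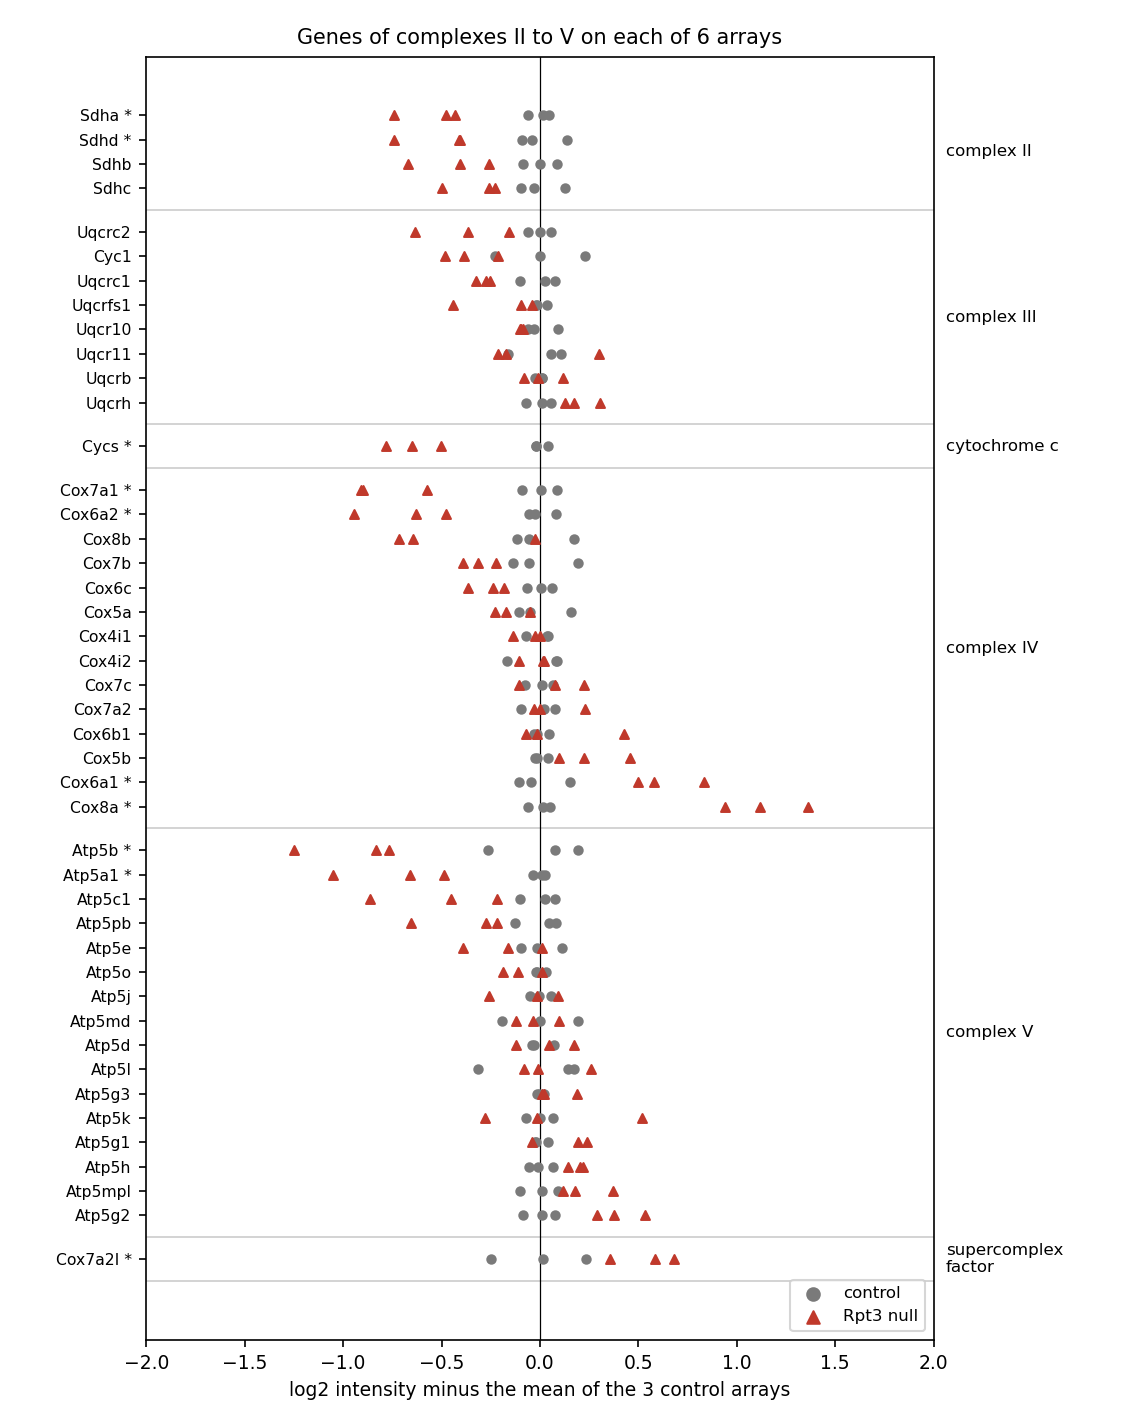
The log2 intensity of each of the 44 tested genes on each array, minus the mean of the 3 control arrays, with 1 gene per row grouped by complex. Grey circles are control arrays, red triangles are Rpt3 null arrays, and a star marks the 10 genes with an adjusted p under 0.05. The triangles of all 4 complex II genes lie left of the circles, whereas complex IV and complex V hold genes on both sides.

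Complex II was lower in Rpt3 null muscle in all 4 of its genes by value, with no overlap of the groups in any, and 2 of the 4 passed the test. Every Rpt3 null array lay below every control array in 15.6% of all tested genes, and 6.56% were called lower. Sdha encodes the flavoprotein that binds succinate. Its log2 intensities were 11.90, 12.21 and 12.17 on the Rpt3 null arrays and 12.66, 12.69 and 12.58 on the control arrays, a 1.46-fold lower level (log2 fold change -0.55, SE 0.13, limma adjusted p = 0.0160). Sdhd encodes a membrane anchor with part of the ubiquinone site. Its values were 10.98, 11.32 and 11.31 against 11.86, 11.63 and 11.68, a 1.43-fold lower level (log2 fold change -0.52, SE 0.14, limma adjusted p = 0.0287). For both genes the first Rpt3 null array was the lowest. Sdhb, the iron-sulphur subunit, stood at -0.44 (limma adjusted p = 0.0533) and did not pass. Sdhc, the other membrane anchor, had the smallest difference of the complex. Its values were 11.31, 11.55 and 11.58 against 11.94, 11.78 and 11.71 (log2 fold change -0.33, limma adjusted p = 0.122). The log2 fold changes of the 4 genes lay between -0.55 and -0.33.

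The calls in complex II were not firm. Sdha was not called without the first Rpt3 null array (log2 fold change -0.45, limma adjusted p = 0.0682) or without the third control array (-0.58, adjusted p = 0.0606), and Sdhd was not called without any 1 of the 3 Rpt3 null arrays or without the third control array (adjusted p from 0.0508 to 0.113). The log2 fold change of Sdha was -0.23 with median centring and -0.21 with quantile normalization over all spots, and it did not pass under either. With median centring Sdhd was -0.23, Sdhc -0.05 and the median of complex II -0.19.

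No gene of complex III passed limma in either direction. Of 8 tested genes 6 were below 0 and 2 above. At an unadjusted p under 0.05 limma gave 3 genes lower and 0 higher, whereas by the methods' test Uqcrh was higher and Uqcrc1 lower. The core proteins Uqcrc2 and Uqcrc1 had log2 fold changes of -0.39 and -0.28, and the electron carriers Cyc1, cytochrome c1, and Uqcrfs1, the Rieske iron-sulphur protein, of -0.36 and -0.19. The lowest was Uqcrc2, with 12.33, 12.81 and 12.60 on the Rpt3 null arrays and 12.91, 12.97 and 13.02 on the control arrays (limma adjusted p = 0.0983). The groups did not overlap, and the first Rpt3 null array was again the lowest. The small subunits lay closer to 0, from -0.10 for Uqcr10 to 0.20 for Uqcrh, the acidic hinge protein. Uqcrc1 and Uqcr10 were read from dim probes. Their mean log2 intensities were 7.75 and 7.53 on the Rpt3 null arrays and 8.04 and 7.63 on the control arrays. The brighter Uqcrh probe read 13.55, 13.50 and 13.68 against 13.44, 13.39 and 13.31 (limma adjusted p = 0.298). The dimmer probe of Uqcrh read 12.39, 12.07 and 12.20 against 11.76, 11.78 and 11.47, a log2 fold change of 0.55 that passed (limma adjusted p = 0.0302 over probes). Both Uqcrh probes were higher on every Rpt3 null array, and they disagreed on the size.

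Cytochrome c, the mobile carrier between complexes III and IV encoded by Cycs, fell. The log2 intensities were 11.84, 11.99 and 11.71 on the Rpt3 null arrays and 12.53, 12.47 and 12.47 on the control arrays, a 1.56-fold lower level (log2 fold change -0.64, SE 0.13, limma adjusted p = 0.00609). The groups did not overlap. The value was -0.32 with median centring, -0.41 with 75th percentile centring and -0.34 in the authors' value table. With quantile normalization over all spots it was -0.34 as well, and none of these passed.

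In complex IV the median of 14 genes was near 0, with 2 genes called higher and 2 lower, beside 12.7% and 6.56% of all tested genes. The 2 that rose encode ubiquitous isoforms and the 2 that fell encode muscle isoforms. Of the 6 ubiquitous isoforms tested, the other 4 did not pass. Among them Cox7b was lower by value, with no overlap of the groups (log2 fold change -0.31, limma adjusted p = 0.144). Cox8a, the ubiquitous isoform of subunit VIII, had the largest rise of all members. Its log2 intensities were 10.59, 10.35 and 10.17 on the Rpt3 null arrays and 9.28, 9.24 and 9.17 on the control arrays, a 2.20-fold higher level (log2 fold change 1.14, SE 0.14, limma adjusted p = 0.000515). Its muscle counterpart Cox8b read 13.42, 12.80 and 12.73 against 13.33, 13.62 and 13.39 (log2 fold change -0.46, limma adjusted p = 0.121). The first Rpt3 null array lay within the control range for Cox8b and the other two lay below it. Without that array Cox8b had a log2 fold change of -0.69 and passed (adjusted p = 0.0237).

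Subunit VIa gave the same pair of directions, with both isoforms past the test. Cox6a1, the ubiquitous isoform, read 12.27, 12.02 and 11.93 on the Rpt3 null arrays and 11.33, 11.59 and 11.39 on the control arrays, a 1.56-fold higher level (log2 fold change 0.64, SE 0.14, limma adjusted p = 0.0110). Cox6a2, the muscle isoform, read 11.90, 11.44 and 11.75 against 12.46, 12.33 and 12.36, a 1.61-fold lower level (log2 fold change -0.68, SE 0.15, limma adjusted p = 0.00910). Neither gene had overlapping groups. Cox6a1 was not called without the first Rpt3 null array (adjusted p = 0.0520), without the third control array (adjusted p = 0.0602) or with Actb centring (log2 fold change 0.18). Cox6a2 was -0.36 with median centring, -0.45 with 75th percentile centring and -0.41 in the authors' value table. With quantile normalization over all spots it was -0.41, and Cox6a2 passed under none of these.

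For subunit VIIa the muscle isoform fell and the ubiquitous isoform had no detectable difference. Cox7a1 read 11.74, 11.40 and 11.41 on the Rpt3 null arrays and 12.31, 12.39 and 12.22 on the control arrays, a 1.73-fold lower level (log2 fold change -0.79, SE 0.14, limma adjusted p = 0.00334). The value of Cox7a1 was -0.45 with median centring, -0.54 with 75th percentile centring and -0.55 in the authors' value table, none of which passed. Cox7a2 read 12.13, 11.90 and 11.87 against 11.92, 11.98 and 11.81 (log2 fold change 0.07, limma adjusted p = 0.779), and its groups overlapped. The value of Cox7a2 was 0.38 with median centring, 0.30 with 75th percentile centring, 0.32 both in the authors' value table and with quantile normalization over all spots, and -0.39 with Actb centring, none of which passed. In all 3 subunits the first Rpt3 null array had the highest value of the group for both isoforms.

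**Figure D2:**
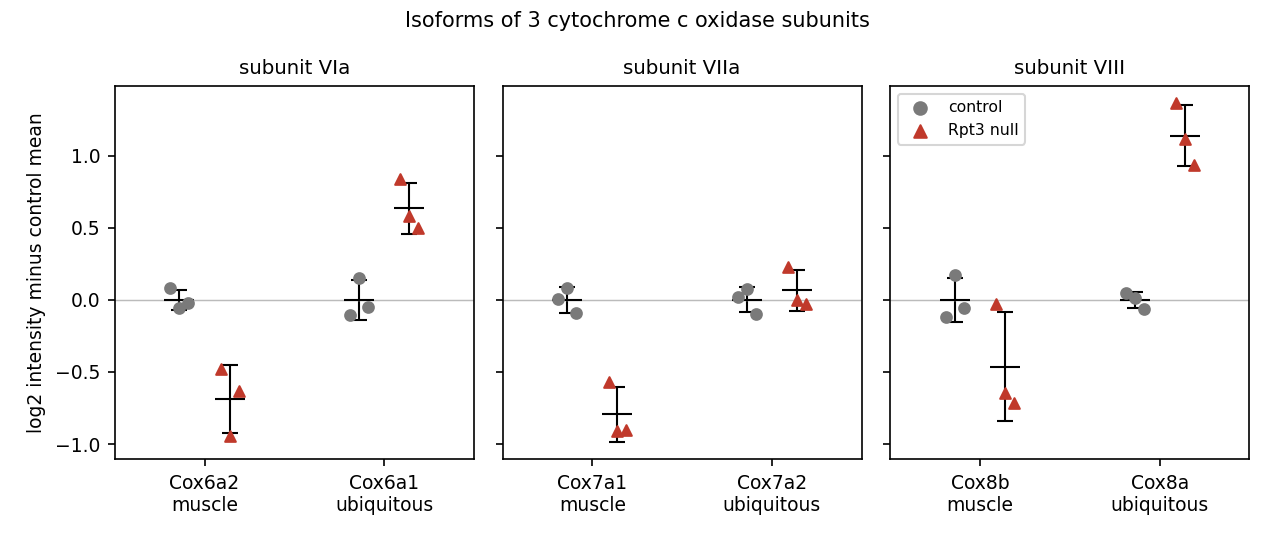
Muscle and ubiquitous isoforms of cytochrome c oxidase subunits VIa, VIIa and VIII, as log2 intensity on each array minus the mean of the 3 control arrays. Grey circles are control arrays, red triangles Rpt3 null arrays, and bars give the mean and SD of 3 arrays. The muscle isoforms lie lower in Rpt3 null muscle except 1 array for Cox8b, and Cox6a1 and Cox8a lie higher.

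The change of an isoform against its partner was then taken on each array, since centring an array shifts both isoforms alike. The difference of the log2 fold changes, ubiquitous minus muscle, was 1.32 for subunit VIa, 0.86 for subunit VIIa and 1.60 for subunit VIII. On single Rpt3 null arrays, relative to the control mean, it was 1.32, 1.52 and 1.13 for VIa, 0.80, 0.91 and 0.87 for VIIa, and 1.39, 1.76 and 1.65 for VIII. On the control arrays it stayed between -0.19 and 0.21 for VIa, between -0.01 and 0.01 for VIIa, and between -0.16 and 0.16 for VIII. The groups did not overlap for any of the 3 subunits. The exact permutation test (two-sided) gave p = 0.1 for each, the smallest that 3 arrays against 3 allow, and 0.14 after adjustment over the 7 isoform pairs compared, so that this test cannot pass 0.05 with 3 arrays a group. Over 14 alternative settings the difference ranged from 1.21 to 1.43 for VIa, from 0.83 to 0.88 for VIIa and from 1.50 to 1.70 for VIII.

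Between the isoforms of subunit IV no difference was detected. Cox4i1, the ubiquitous form, read 12.89, 12.75 and 12.86 on the Rpt3 null arrays and 12.92, 12.93 and 12.82 on the control arrays (log2 fold change -0.05, limma adjusted p = 0.809). Cox4i2, known as the lung isoform, read 7.18, 7.18 and 7.05 against 7.25, 6.99 and 7.24 (log2 fold change -0.02, limma adjusted p = 0.925). The difference between the pair was -0.03 (exact permutation p = 0.9), and its sign changed with the scaling. The other 6 genes of complex IV, Cox5a, Cox5b, Cox6b1, Cox6c, Cox7b and Cox7c, ranged from -0.31 for Cox7b to 0.26 for Cox5b, and none passed.

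Cox7a2l, whose product joins complexes III and IV into supercomplexes and is not a subunit of either alone, rose. It read 10.88, 11.11 and 11.20 on the Rpt3 null arrays and 10.76, 10.28 and 10.54 on the control arrays (log2 fold change 0.54, SE 0.16, limma adjusted p = 0.0372). The groups did not overlap, but the lowest Rpt3 null array was close to the highest control array. The call was lost in 5 of the 6 fits that left out an array, all but the one without the first control array, and under Actb centring the value was 0.05.

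**Figure D3:**
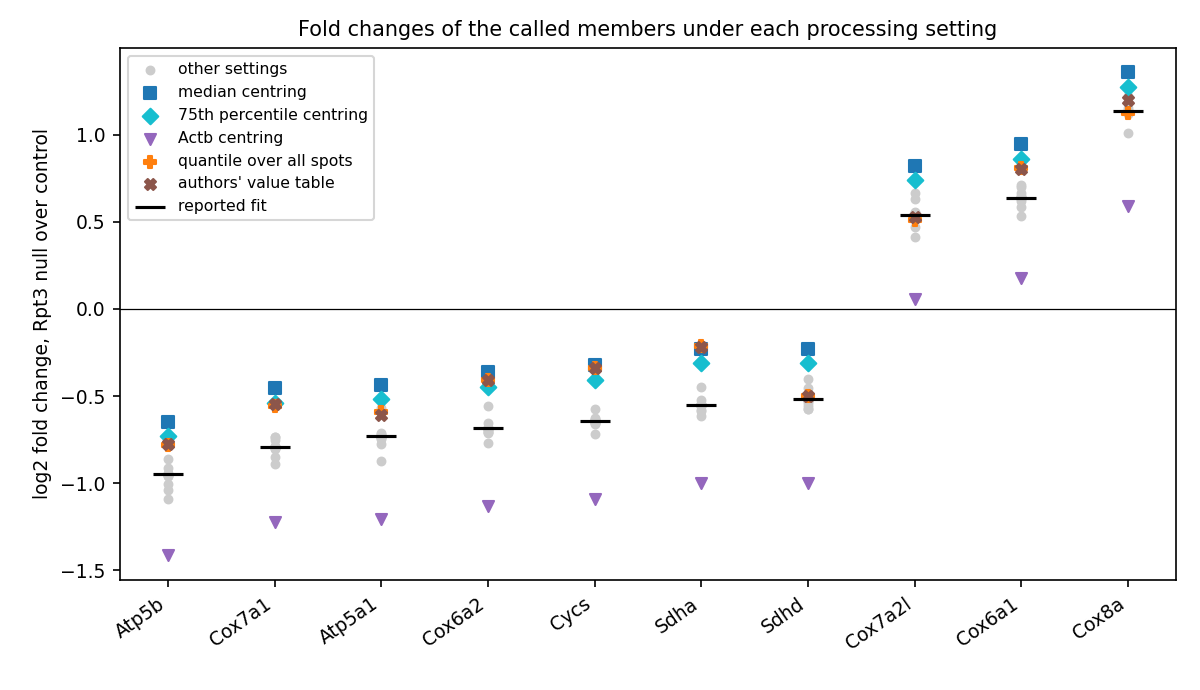
Log2 fold change of the 10 called members under the reported fit (black bar) and under each of 21 alternative settings (5 marked by colour and shape, the others as grey points). No value crosses 0, and with Actb centring Cox7a2l and Cox6a1 come down to 0.05 and 0.18.

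In complex V the called genes were those of the large F1 subunits. Of its 16 genes 0 were called higher and 2 lower, beside 12.7% and 6.56% of all tested genes. Of the 5 genes of the F1 head and central stalk 2 fell, and of the 11 genes of the peripheral stalk, the c-ring and the small membrane subunits 0 passed limma in either direction, with Atp5g2 higher and Atp5pb lower at an unadjusted p under 0.05, and Atp5g2 and Atp5h higher by the methods' test without adjustment. Atp5b encodes the catalytic beta subunit and had the largest fall of all members. Its log2 intensities were 11.23, 11.72 and 11.65 on the Rpt3 null arrays and 12.22, 12.56 and 12.67 on the control arrays, a 1.93-fold lower level (log2 fold change -0.95, SE 0.17, limma adjusted p = 0.00421). Atp5a1 encodes the alpha subunit, which alternates with beta around the head. It read 12.11, 12.67 and 12.50 against 13.19, 13.13 and 13.17, a 1.66-fold lower level (log2 fold change -0.73, SE 0.16, limma adjusted p = 0.00906). Neither gene had overlapping groups, and the first Rpt3 null array was the lowest for both.

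The rest of the F1 part did not pass. For Atp5c1, the gamma subunit that turns inside the head, the log2 fold change was -0.51 (limma adjusted p = 0.0612) with no overlap of the groups, and it passed without the second Rpt3 null array. Atp5e and Atp5d, the epsilon and delta subunits of the central stalk, had log2 fold changes of -0.18 and 0.03. The median over the F1 genes was -0.51, beside -0.08 over 4 genes of the peripheral stalk, 0.13 over 3 genes of the c-ring and 0.07 over 4 small membrane subunits. Within the peripheral stalk the values ran from -0.38 for Atp5pb to 0.19 for Atp5h.

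The c-ring, the rotor that protons turn, is made of a single mature protein encoded by Atp5g1, Atp5g2 and Atp5g3. Atp5g2 had the highest value of complex V. It read 11.85, 11.61 and 11.69 on the Rpt3 null arrays and 11.39, 11.32 and 11.23 on the control arrays (log2 fold change 0.40, limma adjusted p = 0.0531), with no overlap. Atp5g1 read 12.55, 12.60 and 12.32 against 12.40, 12.34 and 12.34 (log2 fold change 0.13, adjusted p = 0.537). Atp5g3 read 13.48, 13.48 and 13.65 against 13.48, 13.46 and 13.45 (log2 fold change 0.07, adjusted p = 0.737). None of the 3 passed in this fit. With median centring Atp5g2 and Atp5g1 passed at 0.69 and 0.49, and Atp5g2 also passed by adjusted p in 6 other alternatives with all arrays, among them 75th percentile centring (0.61) and quantile normalization over all spots (0.47). With Actb centring all 3 were below 0, and Atp5g3 passed as lower. Atp5g2 exceeded Atp5g3 by 0.33 and Atp5g1 by 0.27 in log2 fold change, each at the smallest exact permutation p of 0.1, and Atp5g1 and Atp5g3 differed by 0.06 (exact permutation p = 0.9). These differences depended on the scaling. Over 14 alternative settings that of Atp5g2 over Atp5g3 ran from 0.23 to 0.56, that of Atp5g1 minus Atp5g2 from -0.38 to -0.036 and that of Atp5g1 minus Atp5g3 from -0.036 to 0.37.

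The Rpt3 null arrays spread more widely in these genes than the control arrays. With each mouse on its own array, differences between mice and between arrays cannot be told apart, and the spread was not tested. The median SD over the 44 members was 0.17 in Rpt3 null and 0.08 in control arrays on the log2 scale, whereas over all tested genes it was 0.15 and 0.18. The first Rpt3 null array held the highest value of its group in 21 members and the lowest in 14, and the first control array the highest in 21 and the lowest in 17. Over all tested genes the first Rpt3 null array was the highest of its group in 31.5% and the lowest in 35.2%. For complex II the mean difference from the control mean was -0.66 on this array and -0.38 and -0.34 on the other two. For complex IV it was 0.13 on this array and -0.09 and -0.14 on the others. This array thus lay below the other Rpt3 null arrays in complex II and above them in complex IV.

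The other genes of mitochondrial energy metabolism were read from lists of their own, in the reported fit. How these lists depend on the scaling was not tested. Over all tested genes 12.7% were called higher and 6.56% lower. Of 16 genes of the TCA cycle and pyruvate dehydrogenase 10 fell and 1 rose, with a median log2 fold change of -0.59. The log2 fold change was -1.50 for Idh3a, of the NAD-linked isocitrate dehydrogenase, -1.25 for Dld, the shared dihydrolipoamide dehydrogenase, and -1.15 for Cs, citrate synthase. The gene that rose was Idh3b, another subunit of the same isocitrate dehydrogenase, at 0.84 (limma adjusted p = 0.00872), named after its value was seen. Complex II belongs to this cycle too, and its 4 genes are not in this count. Of 32 subunits of complex I 4 fell and 0 rose by limma (2 higher at an unadjusted p under 0.05), with a median of -0.11. The log2 fold change was -1.03 for Ndufs1, the largest core subunit of the electron input arm, and -0.64 for Ndufab1, the acyl carrier subunit.

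Of 29 genes in the list of assembly factors 4 were called higher and 3 lower, with a median of -0.02, and of all tested genes 12.7% and 6.56%. Whether the shares of the assembly factors, carriers or regulators differ from these was not tested. Atpif1, which is in this list but encodes the inhibitor of ATP synthase hydrolysis and not an assembly factor, rose by 1.49. Surf1, an assembly factor of complex IV, rose by 1.36, and Cox16, another one, by 0.86. Of 19 carriers and import genes 3 rose and 5 fell. The log2 fold change was -1.31 for Slc25a12, the aspartate-glutamate carrier, -0.96 for Slc25a11, the oxoglutarate carrier, and 0.69 for Tomm22, a receptor of the outer membrane import pore. Of 20 regulators of mitochondrial transcription and DNA 2 rose and 1 fell. These were Ssbp1, the mitochondrial single-stranded DNA-binding protein, at 0.96, the orphan nuclear receptor Esrrg at 0.85 and the nuclear receptor Ppara at -0.66.

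**Figure D4:**
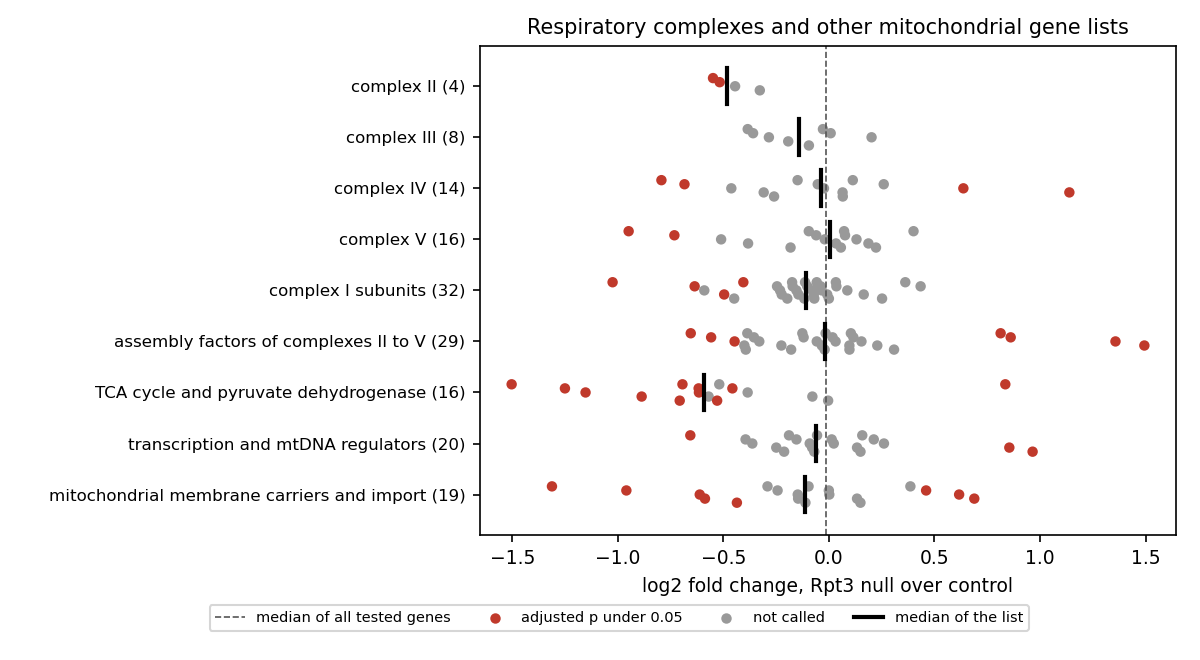
Log2 fold changes under the reported fit of the genes of complexes II to V and of 5 other mitochondrial gene lists, with the number of tested genes in parentheses. Red points passed an adjusted p of 0.05, grey points did not, black bars are list medians and the dashed line is the median of all tested genes, -0.01. The TCA cycle list has the lowest median, -0.59, followed by complex II at -0.48.

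In the reported fit, markers of fiber types and of several other cells moved with the genotype. Of all tested genes 12.7% were called higher and 6.56% lower. Of 9 slow fiber markers 6 rose and 0 fell, with a median of 0.74, and their summed intensity was 27842 to 30527 in Rpt3 null muscle and 18256 to 22391 in controls. Of 12 fast fiber markers Myl1 and Actn3 fell, with log2 fold changes of -0.85 and -0.64, and Myh1 rose by 0.70. Macrophage markers rose in 7 of 10 and their sums were 6351 to 9440 against 2615 to 3072, although the defining markers Adgre1 and Itgam were near background and not tested. Fibroblast markers rose in 5 of 10, with sums of 33212 to 34461 against 21240 to 25520, and adipocyte markers rose in 4 and fell in 1 of 8, with sums of 10878 to 11957 against 8933 to 9829. Of 8 endothelial and 6 Schwann cell markers 0 passed limma, with 1 endothelial marker lower at an unadjusted p under 0.05, and their sums overlapped between the groups. Macrophages, fibroblasts and other cells that are not mature fibers carry the ubiquitous isoforms of complex IV, and the part of these cells in the isoform pattern was not tested. In whole muscle, fewer fibers of a type and less RNA per fiber cannot be told apart.

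The promoters were searched, over the 250 bases before the start and on both strands, for motifs of factors known to act on respiratory genes or muscle genes. The ETS and NRF2 core CCGGAAG was found in 9 of 34 members, beside 6.907% of all promoters in the table, and the NRF1 consensus in 3 of 34, beside 0.998%. A member counted if any of its entries held the motif, whereas the percentages are over single entries. Both motifs hold CG dinucleotides, of which the entries of members had more (median 14 against 6), and no adjustment was made for this. The members with CCGGAAG were Cox6a1, Cox6b1, Atp5e, Atp5h, Atp5j, Atp5l, Sdhd, Uqcr11 and Uqcrh, of which Cox6a1 was called higher and Sdhd lower. The members with the NRF1 consensus were Atp5c1, Atp5g2 and Sdhd. The estrogen-related receptor site TCAAGGTCA was found in 1 of 34, in Atp5g3, beside 0.387% of all promoters. The E-box CAGCTG was found in Cox8b and Atp5b, beside 13.001%, and the MEF2 consensus in 0 of 34, beside 2.919%. Of the called members with an entry, CCGGAAG was in 1 of the 3 that rose and in 1 of the 5 that fell.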

How the data were processed

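RNA of 3 Rpt3 null and 3 control muscles was hybridized to 1-colour CodeLink bioarrays. The deposited scanner reports hold spot and local background intensity values with quality flags, exported from CodeLink Expression Analysis (version 5.0.0.31312 per the file headers) by the authors without normalization between arrays. The deposited value table holds intensity values that the authors quantile normalized over all spots, control spots included: over 496 bright probes its median absolute log2 difference from such a normalization was 0.00090, against 0.027 from one over transcript probes alone.

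Probes were named from the platform annotation, and 2 probes that list a member beside another gene were left out. With limma 3.58.1 in R 4.3.3, background was corrected by normexp (offset 50), the 34967 transcript probes were brought to the same quantiles, and lmFit and eBayes were run on the log2 intensity of the brightest probe of each gene with a probe above background on at least 3 arrays. P-values were adjusted by Benjamini-Hochberg over 14732 genes, of which 51 lacked a spot on some array. Both groups are separate mice. The number of arrays limits the precision, and a level is not compared between probes.

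Every member is accounted for. Values on each array are given for members past an adjusted p of 0.05, the highest and lowest of each complex and the isoform pairs, and up to 3 called genes are named per pathway list. Of the genes that this rule names, 1 is not reported here. Members and lists were chosen with earlier results of these data known. The methods' test is Student's unpaired test on the same values. Alternatives were other scalings, background corrections, filters, variance models, the authors' table, the replicate number as a block and fits without each array. Steps were tested on simulated data. Python 3.11.15 and matplotlib 3.10.9 drew the plots. Promoters came from RefSeq (GRCm38.p6).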

Additional observations from a re-analysis of the deposited data

How the results depend on the processing

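Of 420 values of named members under the alternatives, 341 kept their direction and their side of the threshold, 47 kept the direction but no longer passed, 19 newly passed and 13 changed sign. Members called higher and lower numbered 8 and 2 with median centring, 4 and 2 with 75th percentile centring, 1 and 29 with Actb centring, 2 and 2 in the authors' value table, 4 and 4 with quantile normalization over all spots (chosen after seeing the data), 6 and 12 by the methods' test without adjustment and 1 and 2 after it. Leaving out each array gave 1 to 4 higher and 5 to 7 lower, with 1 higher without the first Rpt3 null or the third control array. Over all tested genes, calls numbered 2556 higher and 600 lower with median centring, 329 higher and 10328 lower with Actb centring, 1636 lower by the methods' test, and 940 higher and 427 lower after its adjustment. Leaving out each array gave 1087 to 2314 higher and 390 to 1453 lower.

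The medians of all members and of complexes II, III, IV and V were 0.14, -0.19, 0.034, 0.20 and 0.25 with median centring, 0.053, -0.27, -0.051, 0.11 and 0.16 with 75th percentile centring, and -0.63, -0.95, -0.74, -0.57 and -0.52 with Actb centring. For all members and complexes II, III and V they were -0.029, -0.25, -0.093 and 0.061 in the authors' value table and -0.022, -0.25, -0.074 and 0.064 with quantile normalization over all spots. Complex III was -0.11 with the mean of probes. Without single arrays, the medians ranged from -0.11 to -0.059 for all members, from -0.56 to -0.37 for complex II, from -0.18 to -0.11 for complex III, from -0.07 to -0.01 for complex IV and from -0.094 to 0.043 for complex V. Cox4i1 changed sign to 0.26 with median centring, 0.18 with 75th percentile centring, 0.033 in the authors' value table and 0.032 with quantile normalization over all spots. With Actb centring Atp5g1 was -0.28, Atp5g2 -0.078, Atp5g3 -0.63, Cox7a2 -0.39 and Uqcrh -0.46. Atp5g1 was 0.49 with median centring, 0.41 with 75th percentile centring, 0.43 in the authors' value table and 0.43 with quantile normalization over all spots. Cox7a2 was -0.016 without the first Rpt3 null array, and Cox4i2 was 0.019 without the third Rpt3 null array, 0.018 without the first control array and 0.016 without the third control array. The difference between Cox4i1 and Cox4i2 was 0.29 with all 3 centrings, 0.014 without background correction, 0.070 in the authors' value table, 0.058 with quantile normalization over all spots, and from -0.10 to 0.075 without single arrays. That between Atp5g1 and Atp5g3 was 0.36 with all 3 centrings, 0.37 in the authors' value table, 0.35 with quantile normalization over all spots, and from -0.036 to 0.21 without single arrays. Atp5g1 minus Atp5g2 was -0.20 with the centrings, -0.036 in the authors' value table and -0.048 with quantile normalization over all spots. The alternatives for isoform differences were chosen after seeing the data. The cause of these changes was not tested.

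Arrays of the same replicate number in the titles had correlations of 0.126, -0.438 and 0.0976 in their deviations from the group means. Between arrays of unlike numbers the correlations ran from -0.485 to 0.471. The deviations cancel within each group of 3 arrays, so that these values cannot decide whether the numbers pair the mice. With the replicate block 2 members were called higher and 6 lower.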

Other observations

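A pair of probes that list a member beside a gene outside the chain were left out of all counts. The probe for Nop53 and Cox5a had a log2 fold change of 0.37 (limma adjusted p = 0.142 over probes), where the probe of Cox5a alone had -0.15. The probe for Atp5j2 and Hspa8 had a log2 fold change of 0.05 (limma adjusted p = 0.896 over probes). Second probes of Cycs, Uqcrc2 and Atp5c1 were near background on all 6 arrays, and those of Uqcr10 and Atp5g1 had log2 fold changes of 0.11 and 0.04.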
